A study of Mus musculus with 6 samples.

Results

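The ID family is a set of 4 small nuclear proteins, encoded in the mouse by Id1, Id2, Id3 and Id4, and its transcripts are described here in the sorted endothelial fraction of B16F0 melanomas. The members were taken by symbol, which gave 4 of the 24421 gene symbols counted. The family was chosen by the measured CPM of Id2, which had stood out between the treatment groups in these same libraries, so the treatment difference of the family is given as a description and not as a test. B16F0 is a transplantable mouse melanoma line. It was injected under the skin of C57BL/6 mice, and tumours grew for 17 days. One group of 3 libraries came from tumours of mice given 15C4, an antibody that blocks the secreted glycoprotein LRG1, and the other group of 3 from mice given control IgG, both at 50 mg/kg every 3 days. Mice of both groups thus carried the same tumour line and received an antibody, and no untreated group is used here. The labels give each library as a numbered sample and do not say whether the samples were separate animals or pools, so the spread between libraries may in part be technical.

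ID proteins contain a helix-loop-helix dimerisation domain but lack the basic stretch that contacts DNA. By binding the E proteins, they keep these partners of tissue-restricted basic helix-loop-helix (bHLH) factors off DNA. Id1, Id2 and Id3 are classical direct targets of bone morphogenetic protein (BMP) signalling, in which ligands bind type I and type II receptors and SMAD1, SMAD5 or SMAD9 enters the nucleus with SMAD4. In endothelium the ligands BMP9 and BMP10 act through ALK1 with the co-receptor endoglin. Combined loss of Id1 and Id3 gene copies impairs blood vessel growth in mouse tumours. LRG1 is known to alter TGF-beta family signalling in endothelial cells, which also uses ALK1 and endoglin.

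The libraries held between 5175600 and 19572202 counts, and between 10413 and 13707 genes were detected in each. Melanocyte transcripts were abundant throughout: the 13 melanocyte genes, all present in every library, summed to 24572 to 28431 CPM (counts scaled to a library total of 1000000) in the 15C4 libraries and to 24061 to 29218 CPM in the IgG libraries. The summed level of 22 pan-endothelial genes was 1725, 3537 and 1654 CPM in 15C4 1, 2 and 3, against 2092, 2963 and 237 CPM in IgG 1, 2 and 3. Cdh5, which encodes the endothelial junction protein VE-cadherin, was at 46.3 CPM in IgG 3, against 505 to 1240 CPM in the other 5 libraries. The label of endothelial cells therefore stands beside a large melanocyte share in all libraries and a low endothelial share in IgG 3. 15C4 3 lay apart from the others on the leading axis of variation (45.7% of the variance). It had 1537 of the 11144 tested genes at 0 counts, against 31 to 507 in the other 5 libraries. In bulk RNA of this kind, fewer cells of a type and less RNA per cell cannot be told apart.

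Id2 was the member that differed most between the groups. It lies on chromosome 12 of GRCm38, from 25093799 to 25097140 on the minus strand, with 3 annotated transcripts and 2438 bases of exonic sequence. Its level was 521, 437 and 459 CPM of the library total in 15C4 1, 2 and 3, against 228, 88.5 and 193 CPM in IgG 1, 2 and 3. All 3 15C4 libraries were above all 3 IgG libraries, and the lowest 15C4 value was 1.92 times the highest IgG value. The mean was 472 ± 43.5 CPM with 15C4, against 170 ± 72.6 CPM with IgG (SD, n = 3 each), a 2.78-fold ratio of means. The 15C4 libraries were the more even, with a coefficient of variation of 9.22%, against 42.7% in the IgG libraries. In the edgeR quasi-likelihood fit over 11144 genes, the log2 fold change of 15C4 over IgG was 1.56 (SE 0.40). Of the tested genes, 2.88% had all 15C4 libraries above all IgG libraries, and 9.52% did not overlap in either direction.

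Among the genes detected in a library, Id2 exceeded 96.4% to 97.9% in the 15C4 libraries and 79.3% to 93.5% in the IgG libraries. Counting error was small beside the spread between libraries: the 853 counts in IgG 2, the lowest value, gave a 95% exact Poisson interval of 82.6 to 94.6 CPM. With 1 library left out, the log2 fold change was 1.24 to 1.83. Its direction could not turn, since the groups did not overlap in the values that chose the family.

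**Figure D1:**
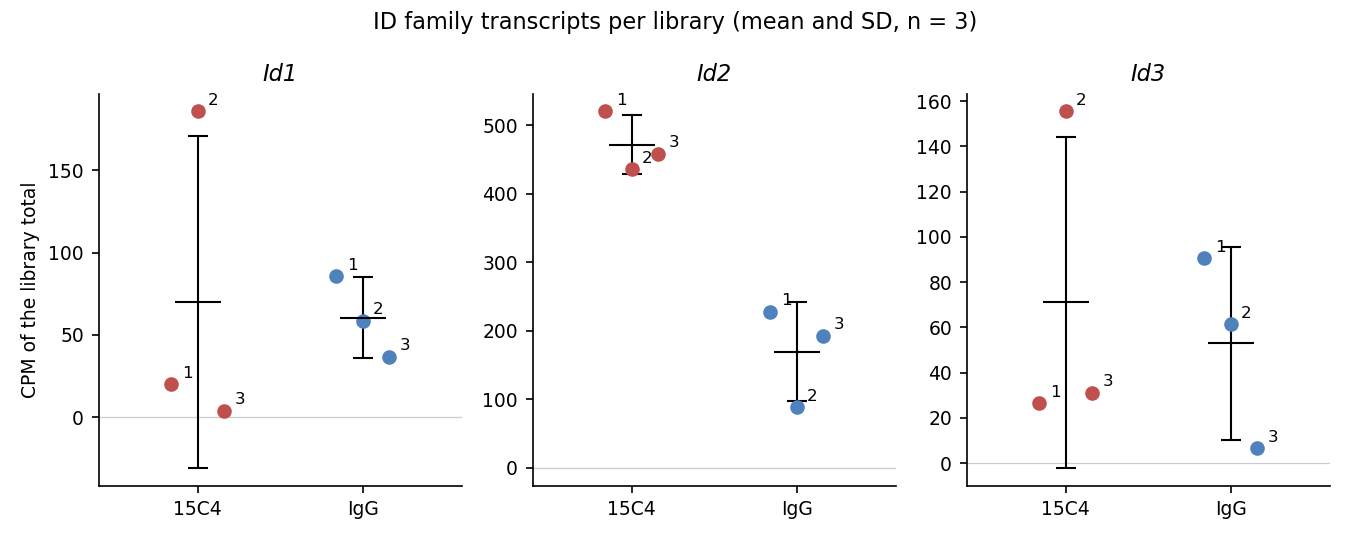
Transcript levels of Id1, Id2 and Id3 in CPM of the library total, with 1 point per library labelled by its number, for 15C4 (left) and IgG (right). The black bars are the mean and SD of 3 libraries. The 15C4 libraries lie at 437 to 521 CPM for Id2, above the IgG libraries at 88.5 to 228 CPM, while the groups overlap for Id1 and Id3.

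The groups overlapped for Id1. Id1 lies on chromosome 2, from 152736251 to 152737410 on the plus strand, with 1160 exonic bases. Its level was 19.9, 186 and 4.07 CPM in 15C4 1, 2 and 3, against 85.8, 58.7 and 36.8 CPM in IgG 1, 2 and 3. One 15C4 library was thus above every IgG library and the other 15C4 libraries were below every IgG library. The highest 15C4 value was 45.7 times the lowest, and the highest IgG value 2.33 times the lowest. The 26 counts behind the value of 15C4 3 gave a 95% exact Poisson interval of 2.66 to 5.96 CPM, so counting error did not cover the distance to the next library. The mean was 69.9 ± 101 CPM with 15C4, against 60.4 ± 24.6 CPM with IgG (SD, n = 3 each), and the log2 fold change was 0.31 (SE 1.12). That direction was not stable. Without 15C4 2 the log2 fold change was -2.31 (SE 0.87), and with all 6 libraries it was -0.21 with limma-voom and -1.30 with a replicate block. Without 15C4 3, the library that stood apart, it was 0.87, and without IgG 3 it was 0.07.

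Id3 overlapped as well and was low in IgG 3. It lies on chromosome 4, from 136143497 to 136145755 on the plus strand, with 1791 exonic bases. Its level was 26.5, 155 and 31.1 CPM in 15C4 1, 2 and 3, against 90.6, 61.3 and 6.77 CPM in IgG 1, 2 and 3. The highest value was in 15C4 2 and the lowest in IgG 3, the libraries with the highest and the lowest pan-endothelial sum. The mean was 71.0 ± 73.2 CPM with 15C4, against 52.9 ± 42.6 CPM with IgG (SD, n = 3 each). Its log2 fold change was 0.54 (SE 0.98). Without 15C4 2 the log2 fold change was -0.75, without IgG 1 it was 1.20 and without IgG 3 it was 0.03. With all 6 libraries it was 1.26 with limma-voom.

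Id4, a member known from the developing brain, had 0 counts in all 6 libraries. A count of 0 allows a level of up to 0.153 to 0.469 CPM in the 15C4 libraries and 0.257 to 0.580 CPM in the IgG libraries at 3 counts, for counting error alone. Id4 lies on chromosome 13, from 48261228 to 48266026 on the plus strand. The antisense gene A330033J07Rik overlaps it and also had 0 counts throughout. The other members overlap no annotated gene.

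With edgeR, 0 of the 3 members tested were called at an adjusted p under 0.05, where 0% of the 11144 tested genes were called. At an unadjusted p under 0.05 the fit held 288 genes (2.58%). DESeq2 called 26 of 10324 genes (0.252%), of which 3 were higher in 15C4 (0.0291%) and 23 lower (0.223%), and limma-voom called 0 of 11144. At the unadjusted threshold DESeq2 held 455 genes (4.41%) and limma-voom 461 (4.14%). Neither called a member. In the authors' deposited table, the log2 fold change of Id2 is -1.61 as IgG over 15C4, the reverse of the direction used above, with an adjusted p of 0.0513. In the authors' deposited table it is -0.34 for Id1 and -0.58 for Id3, with adjusted p of 0.978 and 0.928. Which libraries those deposited values rest on is not given in the sources used here, and they may include others than these 6.

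**Figure D2:**
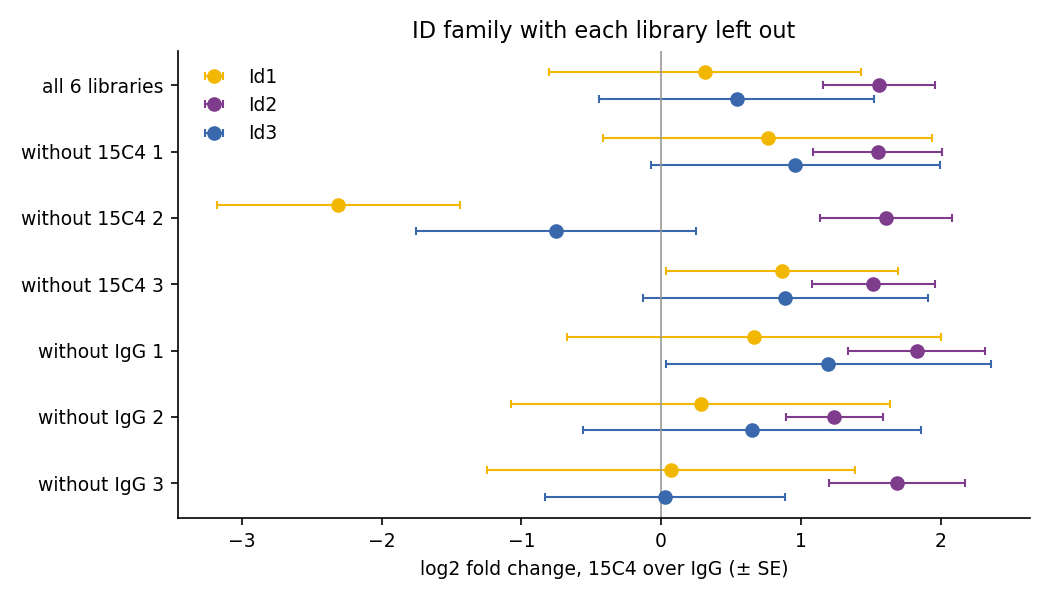
The log2 fold change of 15C4 over IgG for Id1, Id2 and Id3 with all 6 libraries and with each library left out in turn, with bars of 1 SE from the edgeR fit. Id2 lies between 1.24 and 1.83 when a library is left out, a direction fixed by groups that do not overlap, whereas Id1 and Id3 lie below 0 without 15C4 2.

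Levels of different members can be set beside each other only per length, and are given here as CPM per kb of exonic length. This length joins the exons of all annotated transcripts, and for Id1 its 1160 bases are the whole locus. The order of the members, their shares and their sum per kb depend on these lengths. On that scale Id2 averaged 194 ± 17.9, Id1 60.3 ± 86.8 and Id3 39.7 ± 40.8 CPM per kb in 15C4 (SD, n = 3). In IgG, Id2 averaged 69.7 ± 29.8, Id1 52.1 ± 21.2 and Id3 29.5 ± 23.8 CPM per kb (SD, n = 3). Id2 was the first of the 3 in 5 libraries and Id1 in 1, IgG 2. The neighbours in this order, Id1 and Id3, differed by less than the SD of either in 15C4, and in IgG by less than the SD of Id3. In IgG, Id2 and Id1 also differed by less than the SD of either.

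The make-up of the family differed between libraries. Id2 made up 87.0%, 42.0% and 90.0% of the ID level per kb in 15C4 1, 2 and 3, against 42.9%, 30.0% and 69.1% in IgG 1, 2 and 3. Id1 made up 6.98%, 37.6% and 1.68% in 15C4 1, 2 and 3, against 33.9%, 41.8% and 27.6% in IgG 1, 2 and 3. The Id2 share of 15C4 2 was thus near that of IgG 1, and the other 15C4 libraries consisted mostly of Id2. The summed level of the 4 members was 567, 778 and 494 CPM in 15C4 1, 2 and 3, against 404, 208 and 237 CPM in IgG 1, 2 and 3. The groups did not overlap in this sum of CPM. Id2, whose values chose the family, gave on average 472 of the 613 CPM with 15C4 and 170 of the 283 CPM with IgG. The order of the sum was thus largely set by that choice. The groups did overlap once the sum was taken per kb, at 209 CPM per kb in 15C4 3, against 218 CPM per kb in IgG 1.

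**Figure D3:**
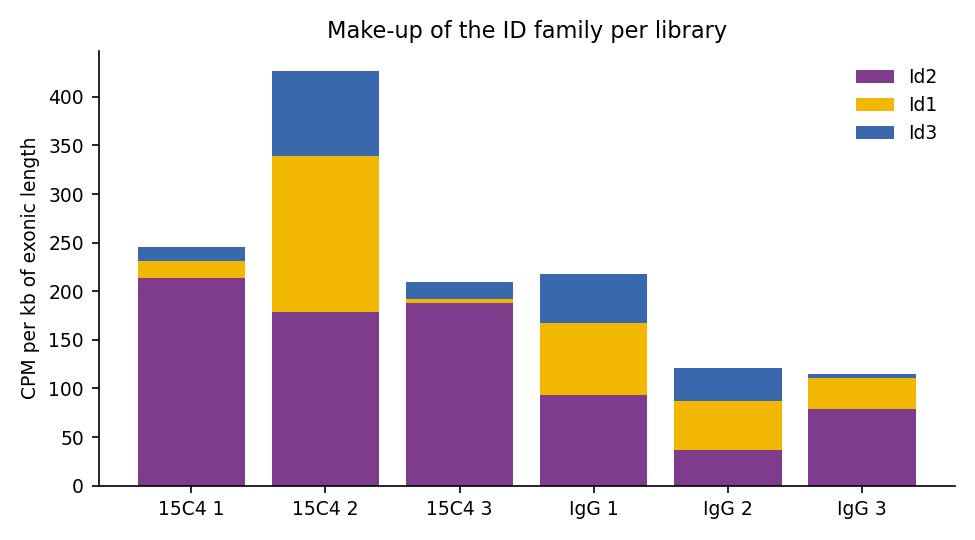
Stacked levels of Id2, Id1 and Id3 in CPM per kb of exonic length in each library, 15C4 libraries on the left. Id2 makes up 87.0% and 90.0% of the bar in 15C4 1 and 15C4 3, while 15C4 2 and IgG 1 hold 42.0% and 42.9%.

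The promoters of Id2 and Id3 are shown because these members had different patterns over the libraries. They are the RefSeq sequences on GRCm38.p6, each with 250 bases before and 50 bases after the transcript start, from chr12:25096043-25096342 on the minus strand and chr4:136143572-136143871 on the plus strand. Both stretches lie inside the GENCODE gene spans given above, since the RefSeq start lies downstream of the outermost GENCODE start. Capitals mark matches on either strand to GGCGCC, a GC-rich sequence that BMP-activated SMADs can bind, and to the CCAAT box, which NF-Y binds and which reads ATTGG on the other strand.
Id2: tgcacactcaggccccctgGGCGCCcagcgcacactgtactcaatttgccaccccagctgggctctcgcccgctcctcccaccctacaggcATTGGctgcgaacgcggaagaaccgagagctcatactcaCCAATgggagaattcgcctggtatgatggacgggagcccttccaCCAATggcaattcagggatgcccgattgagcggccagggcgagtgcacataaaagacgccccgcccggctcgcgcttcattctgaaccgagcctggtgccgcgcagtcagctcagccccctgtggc
Id3: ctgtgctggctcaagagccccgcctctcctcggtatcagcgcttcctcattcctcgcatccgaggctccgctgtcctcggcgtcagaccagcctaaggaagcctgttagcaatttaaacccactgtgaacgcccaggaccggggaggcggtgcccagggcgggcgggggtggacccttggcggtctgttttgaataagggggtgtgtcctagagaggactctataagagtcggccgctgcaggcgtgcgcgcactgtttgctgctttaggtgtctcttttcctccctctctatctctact
The Id2 promoter held 1 GGCGCC, which begins 231 bases before the start, and 3 CCAAT boxes, and none of these matches overlapped. The Id3 promoter held neither, and sequence outside these stretches was not searched. The promoter of Id4, whose transcript had 0 counts throughout, held 1 GGCGCC and 2 CCAAT boxes, so these matches did not separate the detected members from Id4. Of 27018 mouse promoters of this length, 12.0% held GGCGCC and 37.9% a CCAAT box. The E-box CANNTG, the site of bHLH dimers, had 1 match in the Id2 promoter and 0 in that of Id3, and 72.2% of all promoters held it. The SMAD palindrome GTCTAGAC was in neither and was in 0.211% of all promoters. Promoter entries were matched for 3 of the 4 members, Id2, Id3 and Id4.

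Set beside the cell type markers, the members differed in pattern. In IgG 3, where the pan-endothelial sum was 237 CPM, Id2 equalled 81.6% of that sum, Id1 15.5% and Id3 2.86%. In the other libraries Id3 equalled 1.54%, 4.40% and 1.88% of the pan-endothelial sum in 15C4 1, 2 and 3, against 4.33% and 2.07% in IgG 1 and 2. The level of Id3 relative to endothelial transcripts in IgG 3 thus lay within the range of the other libraries, whereas those of Id1 and Id2 lay above theirs. For Id2 that range was 12.3% to 30.2% in the 15C4 libraries and 2.99% to 10.9% in IgG 1 and 2. The part of endothelial and melanoma cells in the Id2 difference was not tested. Of the 13 melanocyte genes, 10 were fitted above 0 and 3 below (median log2 fold change 0.32, against 0.01 for all tested genes), and 0 were called. The 22 pan-endothelial genes leaned the same way, with 18 fitted above 0 and 4 below (median 0.36), and 0 were called. Of all 11144 tested genes, 5649 were fitted above 0. The endothelial lean includes IgG 3, the library poorest in these transcripts. Among the other libraries the summed endothelial level did not separate the groups. It was 1725 and 1654 CPM in 15C4 1 and 3, lower than 2092 and 2963 CPM in IgG 1 and 2. In 15C4 2 it was higher, at 3537 CPM. Whether the lean holds without IgG 3 was not tested. The most abundant melanocyte genes were Dct and Tyrp1, which encode melanin-synthesis enzymes, and both overlapped between the groups. Dct averaged 12094 ± 2131 CPM with 15C4, against 13796 ± 3121 CPM with IgG (log2 fold change -0.10, SE 0.29), and Tyrp1 8267 ± 397 CPM with 15C4, against 7077 ± 784 CPM with IgG (SD, n = 3 each; 0.32, SE 0.26). For 2 of the 13, Pmel and Trpm1, a melanosome and a melanocyte channel gene, all 15C4 libraries were above all IgG libraries, with Pmel at 1761, 1985 and 1878 CPM in 15C4 1, 2 and 3, against 1267, 1517 and 1667 CPM in IgG 1, 2 and 3. The share of all tested genes with this order was 2.88%.

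**Figure D4:**
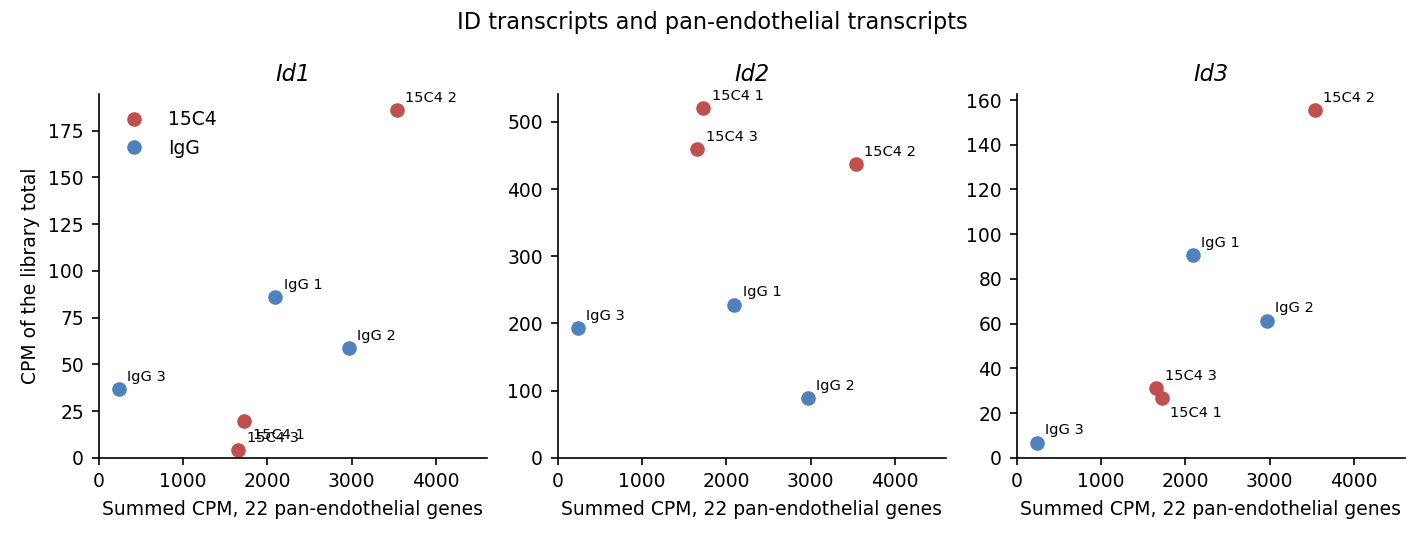
Levels of Id1, Id2 and Id3 in CPM of the library total against the summed CPM of 22 pan-endothelial genes, with 1 point per library. Id3 is lowest in IgG 3 and highest in 15C4 2, the ends of the pan-endothelial range, while Id2 is at 193 CPM in IgG 3 and at 88.5 CPM in IgG 2.

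Id2 is also expressed by natural killer cells, innate lymphoid cells and some dendritic cells, so markers of these are given beside it. The 14 T and NK cell genes with a symbol in the counts summed to 5.21 to 221 CPM in 15C4 and to 9.26 to 631 CPM in IgG. The 221 CPM in 15C4 1 was mostly the chemokine gene Ccl5, at 214 CPM. Gzma, which encodes a granzyme of cytotoxic cells, was at 0.782 to 1.31 CPM in the 15C4 libraries, against 178, 4.56 and 0.514 CPM in IgG 1, 2 and 3. Cd4 was at 0 throughout, and between 1 and 8 of these genes were at 0 in a library. The highest sum, in IgG 1, went with the highest Id2 level among the IgG libraries. Other libraries went the other way. IgG 2 had a sum of 15.8 CPM with Id2 at 88.5 CPM, against 9.26 CPM in IgG 3 with Id2 at 193 CPM. The lowest sum, 5.21 CPM in 15C4 2, went with Id2 at 437 CPM. The 8 innate lymphoid genes summed to 16.1 to 164 CPM in 15C4 and to 57.5 to 216 CPM in IgG, and Rora, a nuclear receptor gene also expressed outside these cells, gave the most of it in 5 libraries and was at 0 in 15C4 3. The 8 dendritic cell genes summed to 1.02 to 1.67 CPM in 15C4 and to 3.94 to 10.2 CPM in IgG, led by Zbtb46. The groups did not overlap in this sum, with the lower values in 15C4. Zbtb46 gave all 6.95 CPM of IgG 2 and 4.25 of the 10.2 CPM of IgG 1. It had only 9, 18 and 6 counts in 15C4 1, 2 and 3. All 15C4 libraries were below all IgG libraries for Zbtb46, as for 6.64% of the tested genes. The 13 macrophage and monocyte genes summed to 0.469 to 75.3 CPM in 15C4 and to 17.9 to 200 CPM in IgG. B cell genes reached at most 2.26 CPM. Lymphatic endothelial genes reached 1168 CPM in IgG 2, the library with the lowest Id2, against 63.8 CPM or less in the others. Fibroblast genes summed to 0.119 to 155 CPM in 15C4 and to 1.71 to 94.7 CPM in IgG, and pericyte and smooth muscle genes to 62.9 to 84.3 CPM in 15C4 and to 10.5 to 103 CPM in IgG. The part of these cells in the ID levels was not tested.

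Among 8574 tested genes with a mean of at least 10 CPM, those most like each member were ranked by Pearson correlation of log2 CPM over the 6 libraries, as a description. For Id3 they were Fabp4, S100a6 and Grb10 (r of 0.99, 0.99 and 0.99). Fabp4, a fatty acid binding protein of capillary endothelium, was at 326, 2170 and 513 CPM in 15C4 1, 2 and 3, against 1136, 942 and 111 CPM in IgG 1, 2 and 3. It was highest in 15C4 2 and lowest in IgG 3, as Id3 was. For Id2 they were Impa1, Herpud1 and Slu7 (r of 0.99, 0.98 and 0.98). Herpud1, a component of endoplasmic reticulum-associated degradation, was at 141, 126 and 120 CPM in 15C4 1, 2 and 3, against 78.3, 20.8 and 60.0 CPM in IgG 1, 2 and 3. For Id1 they were Terf2, Orc6 and Mtmr6 (r of 0.99, 0.99 and 0.99). Orc6, a subunit of the origin recognition complex, was at 48.4, 114 and 27.4 CPM in 15C4 1, 2 and 3, against 77.1, 70.2 and 61.4 CPM in IgG 1, 2 and 3. With so few libraries, an r above 0.9 was reached by 149 genes for Id1, 59 for Id2 and 98 for Id3. The named genes were picked by likeness to the members over these same libraries, so their shared patterns restate those of the members.

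The BMP ligand genes were at or near 0 in most libraries, but Bmp4 reached 18.2 CPM in IgG 2 and Bmp2 9.40 CPM in 15C4 2. None of the 12 passed the filter for testing, which requires counts in several libraries. Of these genes, 7 had 0 counts in every library, among them Gdf2, which encodes BMP9. Transcripts of the sorted fraction do not give the ligands that reached it from elsewhere. Bmp10 had 11 counts in 15C4 3 and 0 in the other 5 libraries. Bmp4 had 0, 3 and 0 counts in 15C4 1, 2 and 3 and 12, 175 and 0 in IgG 1, 2 and 3. Bmp2 had 0, 184 and 0 counts in 15C4 1, 2 and 3 and 3, 2 and 0 in IgG 1, 2 and 3. Bmp2, Bmp4 and Bmp10 each had most of their counts in 1 library.

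Of the 11 receptor and co-receptor genes, 9 were tested, 0 were called, and 4 were fitted above and 5 below 0 (median log2 fold change -0.04). The type II receptor gene Bmpr2 had the highest level, at 232 ± 144 CPM with 15C4, against 302 ± 12.0 CPM with IgG (SD, n = 3 each; log2 fold change -0.30, SE 0.46). Acvr2a, another type II receptor gene, was at 63.1 ± 20.1 CPM with 15C4, against 39.1 ± 6.95 CPM with IgG (0.79, SE 0.50). Bmpr1a, a type I receptor gene, was at 59.8 ± 50.1 CPM with 15C4, against 112 ± 64.7 CPM with IgG (-0.87, SE 0.76). The groups overlapped for all 9.

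Of the 4 genes of the BMP SMADs, 3 were tested and 0 called. Smad4, the shared partner SMAD, was at 69.6 ± 39.8 CPM with 15C4, against 149 ± 46.9 CPM with IgG (SD, n = 3 each; log2 fold change -1.04, SE 0.47). Smad1 was at 145 ± 41.9 CPM with 15C4, against 95.5 ± 76.6 CPM with IgG (0.73, SE 0.65), and Smad5 at 154 ± 23.5 CPM with 15C4, against 152 ± 21.7 CPM with IgG (0.12, SE 0.34). All 3 overlapped between the groups. Smad9 had 30 counts in 15C4 2, 4 in IgG 1 and 0 elsewhere.

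Of 19 antagonists and feedback inhibitors, 6 were tested and 0 called. Twsg1, an extracellular BMP modulator, was at 53.6 ± 33.4 CPM with 15C4, against 125 ± 61.2 CPM with IgG (SD, n = 3 each; log2 fold change -1.18, SE 0.56). Smurf2, a ubiquitin ligase acting on SMADs, was at 67.0 ± 44.0 CPM with 15C4, against 121 ± 33.8 CPM with IgG (-0.79, SE 0.62). The inhibitory SMAD gene Smad6, itself a BMP target, had 0, 79 and 89 counts in 15C4 1, 2 and 3 and 9, 0 and 2 in IgG 1, 2 and 3, so that the groups overlapped. The secreted antagonist gene Nog had 0 counts throughout.

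Of 9 other endothelial BMP targets, 6 were tested and 0 called, with 4 fitted above and 2 below 0 (median log2 fold change 0.46). Hey1, which BMP and Notch signalling both induce, was at 81.3, 76.3 and 42.1 CPM in 15C4 1, 2 and 3, against 20.7, 27.9 and 7.37 CPM in IgG 1, 2 and 3 (log2 fold change 1.91, SE 0.64). Jag1, a Notch ligand gene, was at 83.7, 70.5 and 63.5 CPM in 15C4 1, 2 and 3, against 30.3, 58.2 and 32.8 CPM in IgG 1, 2 and 3 (0.93, SE 0.48). For both, all 15C4 libraries were above all IgG libraries, an order that 2.88% of all tested genes had. Sgk1, a kinase gene, overlapped, at 80.7 ± 86.4 CPM with 15C4, against 57.4 ± 66.0 CPM with IgG (SD, n = 3 each).

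The E proteins that ID proteins bind were abundant in both groups. Tcf12 was at 505 ± 45.4 CPM with 15C4, against 521 ± 53.7 CPM with IgG, with a log2 fold change of 0.04 (SE 0.27). Tcf4 was at 444 ± 109 CPM with 15C4, against 355 ± 192 CPM with IgG (SD, n = 3 each; 0.43, SE 0.46). Its lowest value was in IgG 3, at 148 CPM, against 391 and 527 CPM in IgG 1 and 2. None of the 3 E protein genes was called, and all 3 overlapped. Of 20 tissue-restricted bHLH genes, 12 had 0 counts in every library and 1 was tested. This was Tal1, a factor of endothelial and blood cells, at 17.4 ± 6.11 CPM with 15C4, against 8.52 ± 8.97 CPM with IgG (1.15, SE 1.37), with 1 count in IgG 3.

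Of 8 genes reported to respond to ID gain or loss, 7 were tested and 0 called. Cdkn1a, which encodes the cell cycle inhibitor p21, was at 58.2, 50.7 and 61.8 CPM in 15C4 1, 2 and 3, against 126, 105 and 224 CPM in IgG 1, 2 and 3 (log2 fold change -1.32, SE 0.44). All 15C4 libraries were below all IgG libraries, as for 6.64% of the tested genes. Cdkn1b, which encodes p27, was at 116 ± 33.9 CPM with 15C4, against 167 ± 73.4 CPM with IgG (-0.44, SE 0.43), and Thbs1, the gene of the angiogenesis inhibitor thrombospondin 1, at 544 ± 183 CPM with 15C4, against 368 ± 291 CPM with IgG (SD, n = 3 each; 0.69, SE 0.81). Both overlapped. Over these 8 lists together, 35 of 86 genes were tested, and 3 of the 35 (8.57%) did not overlap between the groups, against 9.52% of all tested genes.

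**Figure D5:**
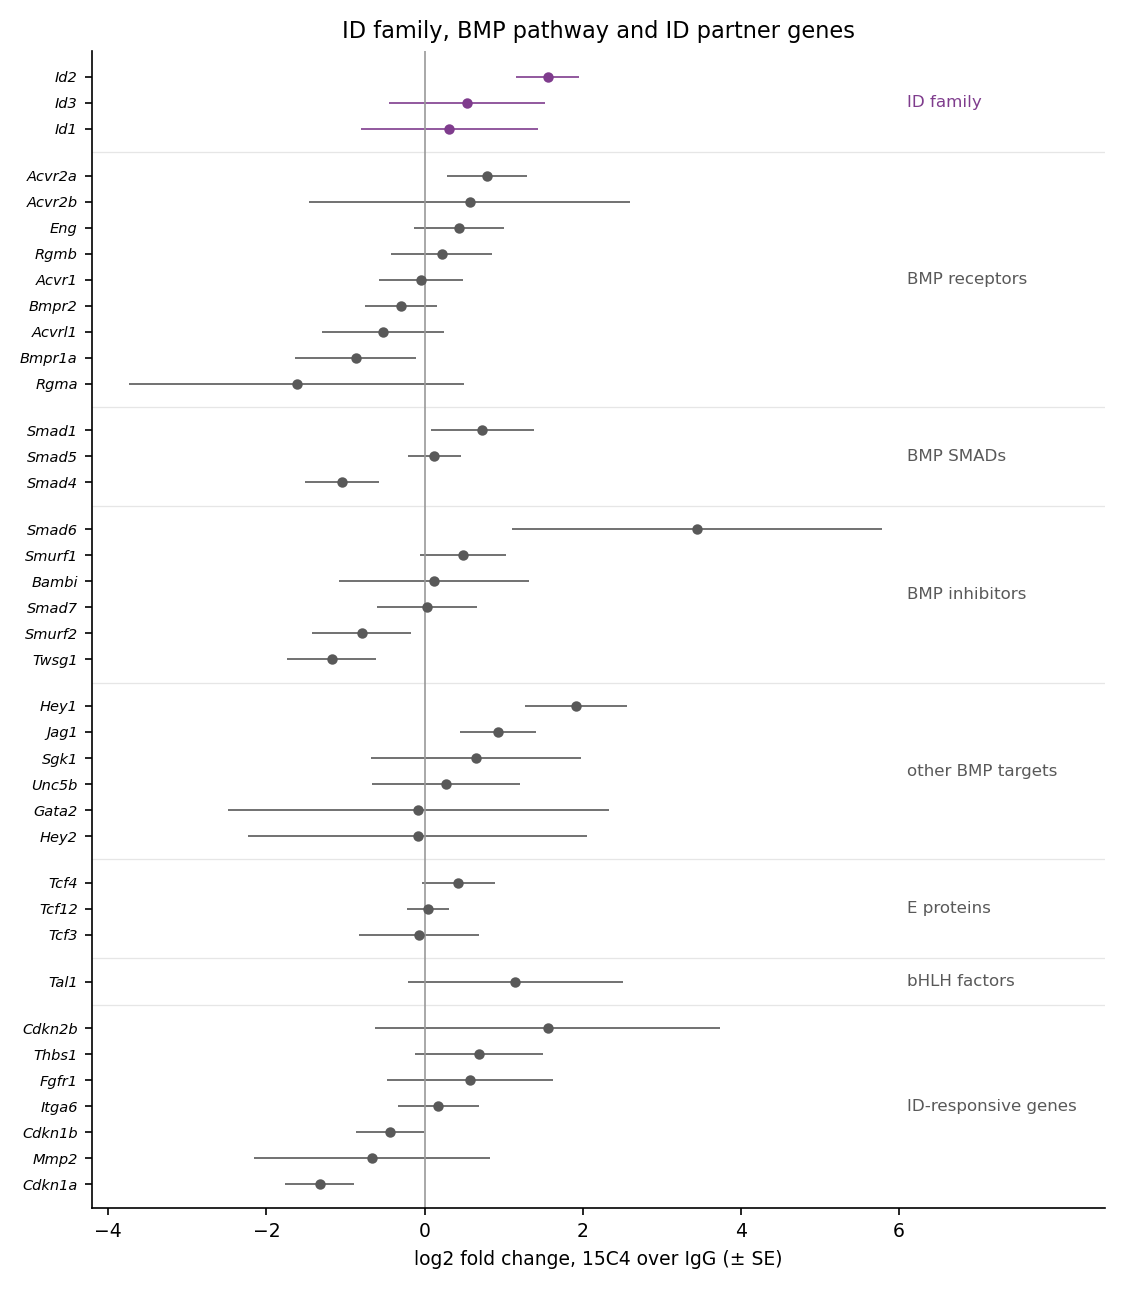
The log2 fold change of 15C4 over IgG with bars of 1 SE, from the edgeR fit over 11144 genes, for the tested ID genes (purple) and the tested genes of the BMP pathway, E protein, bHLH and ID-responsive lists (grey). None was called, and fitted values lie on both sides of 0 in every list but the ID family and Tal1.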

How the data were processed

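The authors deposited raw counts per gene symbol for each of the 6 libraries, from Nextera XT libraries of cDNA amplified by PCR, per the labels' protocols. The submitters' processing notes name DESeq2, featureCounts, STAR 2.5b and fastp, and both mm9 and mm10. Which build, annotation and strand setting the counts rest on is not given in the sources used here. A further deposit by the authors is a series table with equal counts for the 24394 symbols spelled alike. Per the file headers it holds normalised values, a score here because they are counts divided by a size factor and rounded. Per the file headers it also holds a fold change, its log2 value and the authors' p-value, all IgG over 15C4 by the group means.

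CPM are counts scaled to a library total of 1000000. Counts were tested with edgeR 4.0.16 (R 4.3.3), TMM normalisation, filterByExpr (minimum count 10, total 15) and the quasi-likelihood test, with treatment as the only term and Benjamini-Hochberg adjustment at 0.05. The SE of a log2 fold change is its size over the square root of the F statistic. The test was checked on simulated counts. DESeq2 1.42.0 and limma-voom 3.58.1, other normalisations and filters, a replicate block and leaving out each library were alternatives. Intervals and floors of 3 counts cover counting error only: without molecular identifiers, amplified reads are not independent molecules. Coordinates and exonic lengths are from GENCODE M21 on GRCm38, whose symbols matched 23334 of the 24421 counted once. Whether same-numbered libraries were paired is not given in the labels, and the correlation between them cannot settle it.

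The members and lists were chosen with earlier results of these data known. The rule for named genes takes the members, and from each pathway list the 2 tested genes with the smallest unadjusted p and the gene with the highest mean CPM. It takes the 2 most abundant markers of each cell type and the 3 genes most like each member, among tested genes of at least 10 CPM (log2 CPM, prior count 2). Other genes were named after their values were seen.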

Additional observations from a re-analysis of the deposited data

How the results depend on the processing

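The log2 fold change of Id2 was 1.47 to 1.70 under other tools, filters, normalisations and the block, and 1.24 to 1.83 without 1 library, with a direction that its choice had fixed. Id1 was above 0 in 10 of 13 and Id3 in 12 of 13. Id1 was reversed with limma-voom, at -0.21, and with the replicate block, at -1.30, and it ranged from -2.31 to 0.87 without 1 library. Id3 ranged from -0.75 to 1.20 without 1 library and from 0.43 to 1.26 in the other settings, with 0.81 under the block and 1.26 with limma-voom, against 0.54. Both were reversed without 15C4 2. Apart from the left-out library, the cause was not tested. No value was possible for Id4, which had 0 counts.

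Genes called were 0 with edgeR (288 at an unadjusted p under 0.05), 26 with DESeq2, 1 with no filter on low counts, and 0 in the other settings run, including 0 without each library. The 1 gene was 3830403N18Rik, named after its value was seen, with 0 counts in each 15C4 library and 261, 168 and 642 in IgG 1, 2 and 3. No member and no gene of the 8 lists was called in any setting run. The summed CPM of the members was 329.9 CPM higher in 15C4, and 247 to 390.5 CPM higher without 1 library. Most of this difference was that of Id2, whose values chose the family, at a mean of 472 CPM with 15C4, against 170 CPM with IgG. The median log2 fold change of all tested genes was 0.01, but -0.14 with limma-voom and -0.15 with the block.

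Same-numbered libraries had correlations of their deviations from the group mean of -0.04, 0.06 and 0.10, and not every library correlated best with its own number. The labels do not say whether the numbers pair libraries. With 3 libraries a group, these correlations cannot settle it. The replicate block called 0 genes. The counting intervals of the 3 detected members were narrow beside the spread between libraries, and the depth limits what can be said of Id4 and the ligand genes.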

Other observations

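The base mean in the authors' deposited table differed from the mean of the 6 normalised values there. For Id3 the deposited base mean is 2105, against a mean of 555 over the 6 libraries, and for Id2 it is 3807, against 2920. Id4 is listed at 0 in all 6 libraries with a deposited base mean of 2.18. Of 9761 genes whose normalised values average above 50, 70.1% have a deposited base mean more than 10% from that average. Which libraries entered the authors' base mean, fold changes and adjusted p is not given in the sources used here. In the authors' deposited table, 507 of 14112 genes with an adjusted p are under 0.05, and Id2, at 0.0513, is not among them.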
